A study of Mus musculus with 4 samples.

Results

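The cornified envelope genes of the epidermal differentiation complex were followed in cultured newborn mouse keratinocytes, control and Ovol2-deficient. They were taken by name from the expression table: every symbol that starts with Lce or Sprr, and Lor, Ivl, Flg, Flg2, Hrnr, Rptn, Tchh, Tchhl1, Crct1, Smcp and Crnn, where the mean over the libraries was above 0. The rule found 45 of the table's 23970 gene symbols, all on chromosome 3 between Lor (chr3:92080271-92083142) and Tchhl1 (chr3:93468754-93471980, GENCODE M21 on GRCm38). They were 14 Lce1, 6 Lce3 and 1 Lce6 gene, 2 Sprr1, 10 Sprr2, 1 Sprr3 and 1 Sprr4 gene, 6 genes of the S100-fused family, Lor and Ivl, and Crct1 and Smcp. Flg was not analysed here, since no row carried that name. The least expressed genes that met the rule were Smcp, with 0.0866 and 0.0720 FPKM in controls and 0 and 0.308 in deficient libraries, and Flg2. No gene of the named families was listed at 0 in all 4 libraries.

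RNA came from epidermal keratinocytes of newborn mice at passage 0, grown in medium low in calcium on growth-arrested J2-3T3 cells, a mouse fibroblast feeder line. Per the labels' protocols the cells were taken before the culture was confluent, to keep spontaneous differentiation low, and the feeders were removed before RNA isolation. Both groups, control and Ovol2-deficient (coded SSKO in the titles), had 2 libraries each, with no treatment beyond the culture. The sources used here do not give the allele, what drove the deletion or the strain, nor do they state that the libraries came from separate animals, so p-values measure only the spread between these libraries. Values are in FPKM, that is fragments scaled by transcript length and by the mapped fragments of the library, so that levels can be compared between genes. They are given throughout in the order control 1, control 2, Ovol2-deficient 1, Ovol2-deficient 2, and the deficient numbers are those of the table's columns.

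The cornified envelope is the protein shell that replaces the plasma membrane of a keratinocyte at the end of its differentiation. Transglutaminases join its precursors by bonds between glutamine and lysine residues. Involucrin (Ivl) is an early scaffold, the small proline-rich proteins (Sprr) act as bridges, loricrin (Lor) is a glycine-rich main component, and the late cornified envelope proteins (Lce) are small cysteine-rich proteins that are added late. The S100-fused proteins, such as hornerin and repetin, join a calcium-binding start to long repeats. Ovol2 is a zinc-finger transcription factor of epithelia.

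The first 60 coding bases show how the families differ at the start of the coding sequence. Glutamine codons (CAA and CAG) are in capitals. Sequences and positions are from the GENCODE M21 transcripts (GRCm38, the same build as mm10), read 5′ to 3′ on the gene's strand. Shown are the Lce1 gene with the highest ratio between the groups among those tested, the best expressed Sprr2 gene among those that rose, the best expressed Sprr1 gene, loricrin and involucrin.
Lce1k (chr3:92806816-92806875, minus strand): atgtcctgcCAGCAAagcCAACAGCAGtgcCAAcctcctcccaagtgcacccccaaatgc
Sprr2d (chr3:92340254-92340313, plus strand): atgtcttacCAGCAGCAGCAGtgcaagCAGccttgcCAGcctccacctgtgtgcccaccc
Sprr1a (chr3:92484633-92484692, minus strand): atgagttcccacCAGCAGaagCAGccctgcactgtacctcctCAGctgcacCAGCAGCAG
Lor (chr3:92081918-92081977, minus strand): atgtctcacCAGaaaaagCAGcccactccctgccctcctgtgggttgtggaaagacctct
Ivl (chr3:92572697-92572756, minus strand): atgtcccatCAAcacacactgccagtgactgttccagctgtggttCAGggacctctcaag
Each has a glutamine codon near its start. Involucrin had 26.7% glutamine codons and loricrin 55.3% glycine codons. Sprr2d had 41.2% proline codons, and Lce1k had 20.8% cysteine codons. Some members are near copies of each other: over the whole coding sequence Lce3d and Lce3f were 99.33% identical. Such likeness limits how far reads can be assigned to single genes. The share of 50-base stretches of a transcript that also occur in another gene was 0% to 27.1% in the Lce1 genes, 12.1% to 49.3% in Lce3 and 0% in Sprr1. It was 0% to 14.1% in Sprr2 apart from Sprr2a2, where it reached 96.5%. The sources used here do not say how shared reads were counted, so the split between single Lce3 genes, and Sprr2a2 as a whole, are uncertain.

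Counted reads were estimated at 12400000 to 14800000 per library from the steps between low values in the authors' deposited table, so the lowest FPKM values rest on few reads. The targeted gene, Ovol2, stood at 2.68 and 2.14 FPKM in controls and 1.45 and 0.941 in deficient libraries. Both deficient values lay below both controls, with a log2 fold change of -0.64 ± 0.18 (SE) that did not pass the limma test (adjusted p = 0.129). Keratinocyte markers were high in all libraries, with Krt5 at 2960 and 2762 against 2484 and 2269 FPKM.

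Most of the envelope genes were higher in the Ovol2-deficient libraries, and none fell. Of the 45 genes, 40 were higher in both deficient libraries than in both controls and 5 overlapped, against 23.4% of all genes with a mean above 0 that were higher in this way (24.1% of those tested below). Genes with a mean of at least 1 FPKM over the 4 libraries were tested with limma on log2(FPKM + 1), with Benjamini-Hochberg adjustment over all 11350 genes and a threshold of 0.05. Of the envelope genes, 37 passed this filter and 8 did not. Those that rose were 14: Lce1a1, Lce1c, Lce1e, Lce1g, Lce1k, Lce1m, Lce3b, Lce3c, Lce3d, Lce3f, Sprr2d, Sprr2g, Sprr2i and Sprr2j-ps (adjusted p = 0.0214 to 0.0482). None fell, and 23 did not pass. Over all genes tested, 0.837% were called higher and 0.511% lower, or 1.35% in either direction. At an unadjusted p under 0.05, 33 envelope genes were higher and 0 lower, against 9.49% and 7.94% of all genes tested.

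Among the tested genes, 8 had a control mean under 1 FPKM (Lce1i, Lce1k, Lce1l, Lce1m, Lce3a, Lce3b, Sprr3 and Sprr4) and met the filter only through the deficient libraries, so they had to be higher there. Of these 8, Lce1k, Lce1m and Lce3b are among the 14 that rose. Of the other 29, with a control mean of at least 1, 11 rose, where 0.761% of such genes did in the whole table. The median log2 fold change of these 29 was 1.70, while that of all such genes was -0.0047. At least 4-fold higher on the log2(FPKM + 1) scale were 10 of the 29, against 0.134% of all such genes. Over all 37 tested genes the median was 1.80 and 14 were at least 4-fold higher, against -0.0014 and 0.273% over all genes tested. Crnn, the gene of cornulin, was the only tested gene with a negative value (-0.52 ± 0.31 SE, adjusted p = 0.446), and its groups overlapped.

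The 2 deficient libraries were not equally far from the controls. Deficient library 1 held the highest value for 40 of the 45 genes. The full order deficient 1, deficient 2, control 1, control 2 occurred in 30 of the 37 tested genes, against 7.59% of all genes tested. The median difference from the control mean over the tested envelope genes was 2.28 in deficient 1 and 1.14 in deficient 2 on the log2(FPKM + 1) scale, and 0.32 and -0.32 in controls 1 and 2. For all genes tested these medians lay between -0.025 and 0.024. The calls depended on this library: without deficient 1 none of the 37 passed, although 27 were higher at an unadjusted p under 0.05 and the median log2 fold change was still 1.14. Without control 1, the higher control for 32 of the 37 tested genes, 26 passed. No envelope gene passed in limma without a filter on low values (29 higher at an unadjusted p under 0.05) or after quantile normalization (32), and 2 passed without the variance trend. These were Lce1m and Lce3b, both of them among the 8 that met the filter only through the deficient libraries. With 2 libraries a group, the smallest p of an exact two-sided permutation test is 0.333, so the calls rest on the model's pooled spread.

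**Figure D1:**
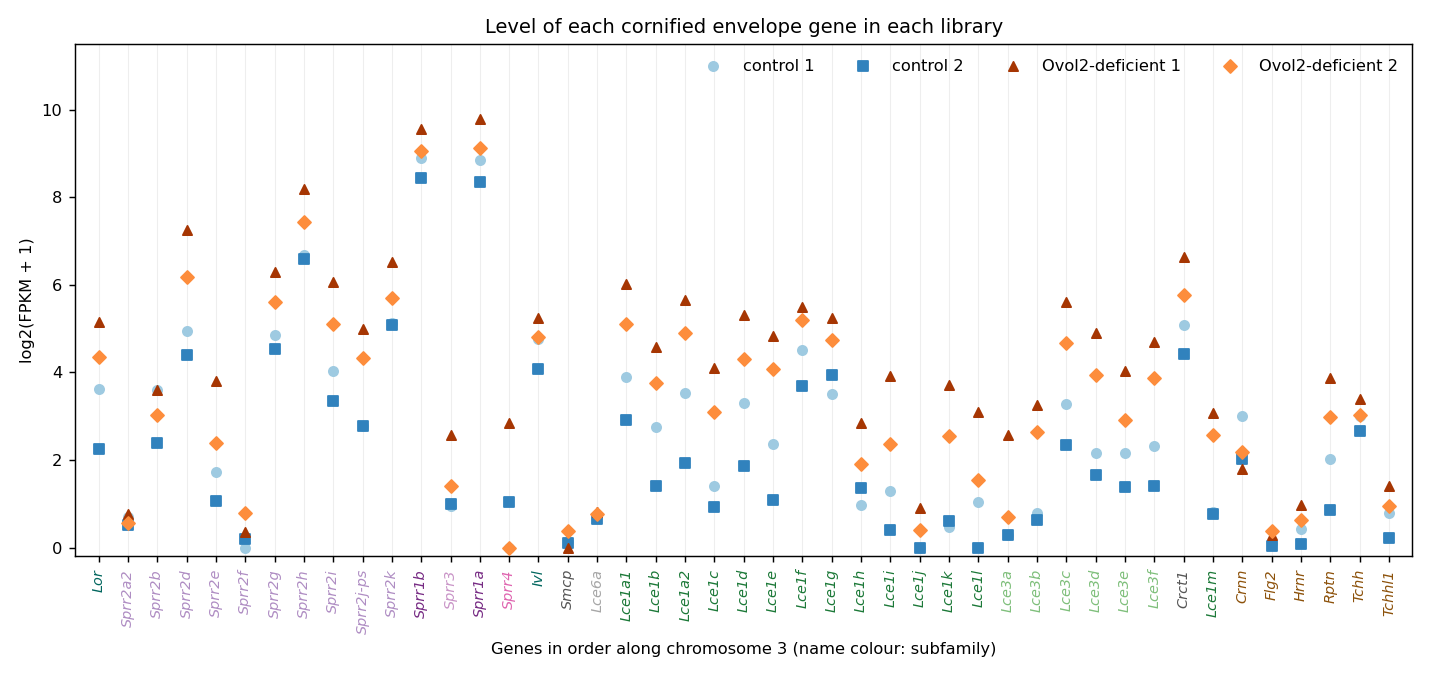
Level of each of the 45 genes in each library as log2(FPKM + 1), with genes in their order along chromosome 3 and names coloured by subfamily. Triangles and diamonds are the Ovol2-deficient libraries, circles and squares the controls, and for 40 genes both deficient symbols lie above both control symbols.

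Late cornified envelope genes of the Lce1 group were higher in the Ovol2-deficient cultures, with a summed level of 81.8 and 45.2 FPKM in controls and 347 and 197 in deficient libraries. Group means came to 63.5 ± 25.8 and 272 ± 106 (SD, n = 2 each), a ratio of 4.28, and the lower deficient library was 2.41 times the higher control. All 14 genes were higher in both deficient libraries, and 6 of the 13 tested rose. Their log2 fold changes ran from 1.205 to 2.73, with a median of 2.15. Of the tested genes, Lce1i, Lce1k, Lce1l and Lce1m met the filter only through the deficient libraries, so they had to be higher there. Lce1k and Lce1m are among the 6 that rose.

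Lce1k had the highest ratio of means among tested genes without a 0, at 18.7. It was measured at 0.378 and 0.526 FPKM in controls and at 12.03 and 4.86 in deficient libraries (log2 fold change 2.59 ± 0.33 SE, limma adjusted p = 0.0353). Lce1e went from 4.11 and 1.12 to 27.4 and 15.8 FPKM, with the largest log2 fold change of the tested envelope genes (2.73 ± 0.40, adjusted p = 0.0392). Lce1c stood at 1.67 and 0.899 against 16.1 and 7.56 FPKM (2.43 ± 0.32, adjusted p = 0.0353). In each of these 3 the lower deficient value lay well above the higher control value.

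Lce1m lies apart from the other Lce1 genes, next to Crct1 at chr3:93017810-93019060, and none of its 50-base stretches occurs in another gene. Its FPKM values were 0.760 and 0.707 in controls and 7.43 and 4.98 in deficient libraries (2.03 ± 0.18, adjusted p = 0.0214). Its controls were close (SD 0.0374 FPKM), and its standard error was the smallest of the 13 tested Lce1 genes. Lce1a1, the best expressed Lce1 gene, went from 13.9 and 6.59 to 63.6 and 33.3 FPKM (2.15 ± 0.36, adjusted p = 0.0473). Lce1g was measured at 10.4 and 14.4 against 36.7 and 25.6 FPKM (1.26 ± 0.20, adjusted p = 0.0419), and here control 2 was the higher control. Lce1f, second in level, did not pass, at 21.97 and 11.95 against 43.9 and 35.5 FPKM (1.23 ± 0.25, adjusted p = 0.0637). Both controls list Lce1j at 0, against 0.878 and 0.314 FPKM in deficient libraries, and was under the filter.

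The 6 Lce3 genes, which are known for expression in stressed or wounded rather than resting epidermis, showed the largest ratio of summed levels. The sum was 20.7 and 10.3 FPKM in controls and 130 and 65.1 in deficient libraries, with means of 15.5 ± 7.40 and 97.6 ± 46.0 (SD, n = 2 each) and a ratio of 6.30. The lower deficient library was 3.14 times the higher control. All 6 genes were higher in both deficient libraries and 4 rose, with log2 fold changes over the family from 1.34 to 2.51. Lce3a, and Lce3b among the 4 that rose, met the filter only through the deficient libraries. The sum depends less than the single values on how reads were split between the copies.

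Lce3c, the best expressed of them, went from 8.78 and 4.08 to 47.5 and 24.6 FPKM (log2 fold change 2.32 ± 0.36 SE, limma adjusted p = 0.0419). Lce3d was measured at 3.49 and 2.18 against 29.1 and 14.5 FPKM (2.51 ± 0.30, adjusted p = 0.0353). Lce3f, its near copy, stood at 4.001 and 1.64 against 24.8 and 13.6 FPKM (2.42 ± 0.34, adjusted p = 0.0392). Lce3b, whose stretches are shared least (12.1%), had 0.741 and 0.537 FPKM in controls and 8.62 and 5.28 in deficient libraries (2.25 ± 0.21, adjusted p = 0.0214). The groups stood clear of each other in all 4. Lce3a and Lce3e did not pass, and Lce3a was carried by deficient library 1, with 0.230 and 0.220 against 4.92 and 0.630 FPKM (1.34 ± 0.52, adjusted p = 0.243). Lce6a barely differed, at 0.640 and 0.573 against 0.764 and 0.705 FPKM, and was under the filter.

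The 2 Sprr1 genes were by far the most abundant envelope genes in every library, and their relative difference was small. Summed, they stood at 931 and 673 FPKM in controls and 1633 and 1086 in deficient libraries, with means of 802 ± 183 and 1359 ± 387 (SD, n = 2 each) and a ratio of 1.70. The lower deficient library was only 1.17 times the higher control. Neither passed the test, though both were higher at an unadjusted p under 0.05. Sprr1b was measured at 472 and 346 against 754 and 531 FPKM (0.65 ± 0.20 SE, limma adjusted p = 0.164), and Sprr1a at 459 and 327 against 879 and 555 FPKM (0.85 ± 0.24, adjusted p = 0.130). Leaving out 1 library moved Sprr1a between 0.52 and 1.18 and Sprr1b between 0.39 and 0.899. In both, the gap from the higher control to the lower deficient library was smaller than the gap between the libraries within each group.

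The 10 Sprr2 genes lie between these extremes. Their sum was 228 and 191 FPKM in controls and 734 and 410 in deficient libraries, with means of 209 ± 26.2 and 572 ± 229 (SD, n = 2 each) and a ratio of 2.73. Without deficient library 1 the log2 ratio of the sums was 0.97 in place of 1.45. Of the 8 tested genes 4 rose, and 8 of all 10 were higher in both deficient libraries. The tested log2 fold changes ran from 0.32 to 2.05.

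Sprr2d went from 29.7 and 20.0 to 151 and 71.8 FPKM (log2 fold change 2.05 ± 0.33 SE, limma adjusted p = 0.0434). Sprr2i was measured at 15.3 and 9.21 against 66.2 and 33.5 FPKM (1.90 ± 0.32, adjusted p = 0.0473). Sprr2g, which GENCODE M21 lists as a polymorphic pseudogene, stood at 28.0 and 22.2 against 77.8 and 48.1 FPKM (1.26 ± 0.22, adjusted p = 0.0482). Sprr2j-ps, a pseudogene by its symbol but protein-coding in GENCODE M21, had 5.88 and 5.87 FPKM in controls and 31.0 and 19.2 in deficient libraries (1.88 ± 0.20, adjusted p = 0.0347). Sprr2h, the most abundant Sprr2 gene, just missed the threshold, at 101 and 94.9 against 293 and 173 FPKM (1.19 ± 0.22, adjusted p = 0.0548). Sprr2b had 11.1 and 4.22 FPKM in controls and 11.03 and 7.16 in deficient libraries (0.32 ± 0.37, adjusted p = 0.731), and its groups overlapped.

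Sprr3 and Sprr4 were low. Sprr3 had 0.943 and 0.992 FPKM in controls and 4.97 and 1.65 in deficient libraries, and did not pass (1.02 ± 0.34, adjusted p = 0.186). Sprr4 was listed at 0 in control 1 and deficient 2, and at 1.05 and 6.15 FPKM in control 2 and deficient 1. Its groups overlapped.

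**Figure D2:**
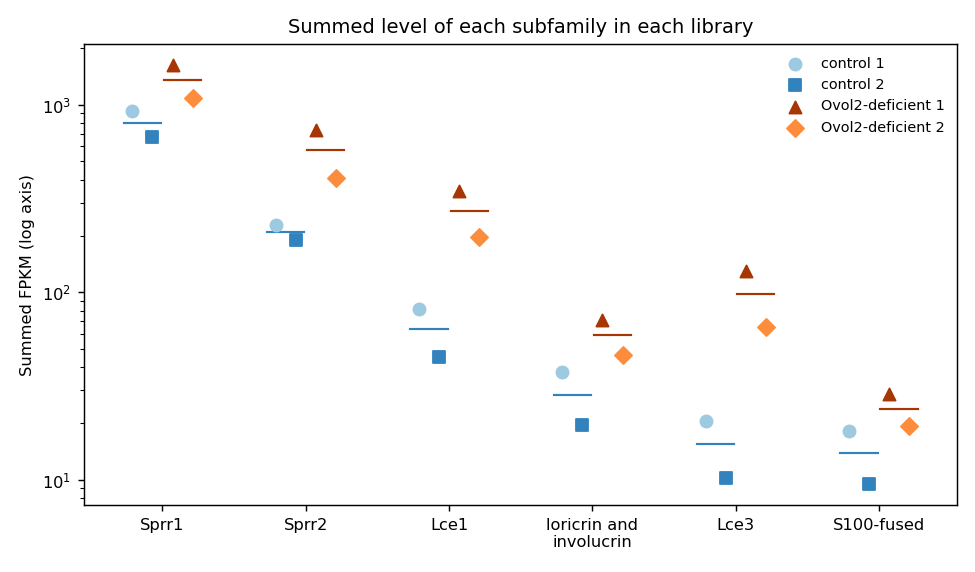
Summed FPKM of 6 groups of envelope genes in each library on a log axis, with a line at each group mean. The deficient libraries lie above the controls in every subfamily shown, with the narrowest gap in the S100-fused genes (lower deficient 1.06 times the higher control) and the widest in Lce3 (3.14 times).

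As a description of the make-up of the envelope transcripts, Sprr1 held 68.9% and 69.3% of the summed FPKM of all 45 genes in controls and 53.5% and 57.8% in deficient libraries. The Lce1 share was 6.05% and 4.66% in controls and 11.4% and 10.5% in deficient libraries. Lce3 made up 1.53% and 1.06% against 4.26% and 3.47%, and Sprr2 made up 16.9% and 19.6% against 24.0% and 21.8%. For each of these 4 families the groups did not overlap in share. Neither did they for Crct1 with Smcp (2.44% and 2.11% against 3.21% and 2.86%) or for Lce6a (0.0473% and 0.0591% against 0.0250% and 0.0375%). Shares are parts of a whole, so a larger share of some families makes that of others smaller. The share of Lor and Ivl together did overlap, at 2.77% and 2.02% against 2.34% and 2.47%. An exact permutation test of a share cannot fall below p = 0.333 here, so no difference between families is called. The sum of all 45 genes was 1352 and 971 FPKM in controls and 3054 and 1879 in deficient libraries, a ratio of means of 2.12.

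Loricrin and involucrin were higher in both deficient libraries without passing the test. Lor was measured at 11.4 and 3.78 FPKM in controls and 34.7 and 19.5 in deficient libraries (log2 fold change 1.81 ± 0.43 SE, limma adjusted p = 0.0917). Ivl stood at 26.01 and 15.9 against 36.9 and 26.9 FPKM (0.61 ± 0.23, adjusted p = 0.242). For Ivl the lower deficient library and the higher control were almost level. Leaving out 1 library moved Ivl between 0.27 and 0.95 and Lor between 1.13 and 2.50. Crct1, which encodes a small cysteine-rich protein of the complex, had 33.0 and 20.4 against 98.1 and 53.4 FPKM. It missed the threshold in limma (1.44 ± 0.30, adjusted p = 0.0672) but was called higher in the authors' deposited table. Smcp, whose product is known from sperm mitochondria, was near 0 throughout, with overlapping groups.

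Of the 3 S100-fused genes tested none passed in limma, 1 was higher at an unadjusted p under 0.05, and none passed in the authors' deposited table. Rptn, repetin, had the largest difference, with 3.05 and 0.809 FPKM in controls and 13.8 and 6.90 in deficient libraries (1.997 ± 0.41 SE, limma adjusted p = 0.0640). Tchh, trichohyalin, a protein of the inner root sheath and tongue, was measured at 6.996 and 5.35 against 9.57 and 7.15 FPKM (0.38 ± 0.17, adjusted p = 0.304). Crnn had 7.05 and 3.04 FPKM in controls and 2.47 and 3.55 in deficient libraries, so the highest value was a control. Hrnr, Flg2 and Tchhl1 were under the filter. Hrnr stood at 0.338 and 0.0646 against 0.956 and 0.553 FPKM. Flg2 was at 0.0768 and 0.0214 against 0.221 and 0.293 FPKM, and Tchhl1 at 0.724 and 0.167 against 1.66 and 0.944 FPKM. All 3 were higher in both deficient libraries, at levels far below those of the Sprr1 genes.

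**Figure D3:**
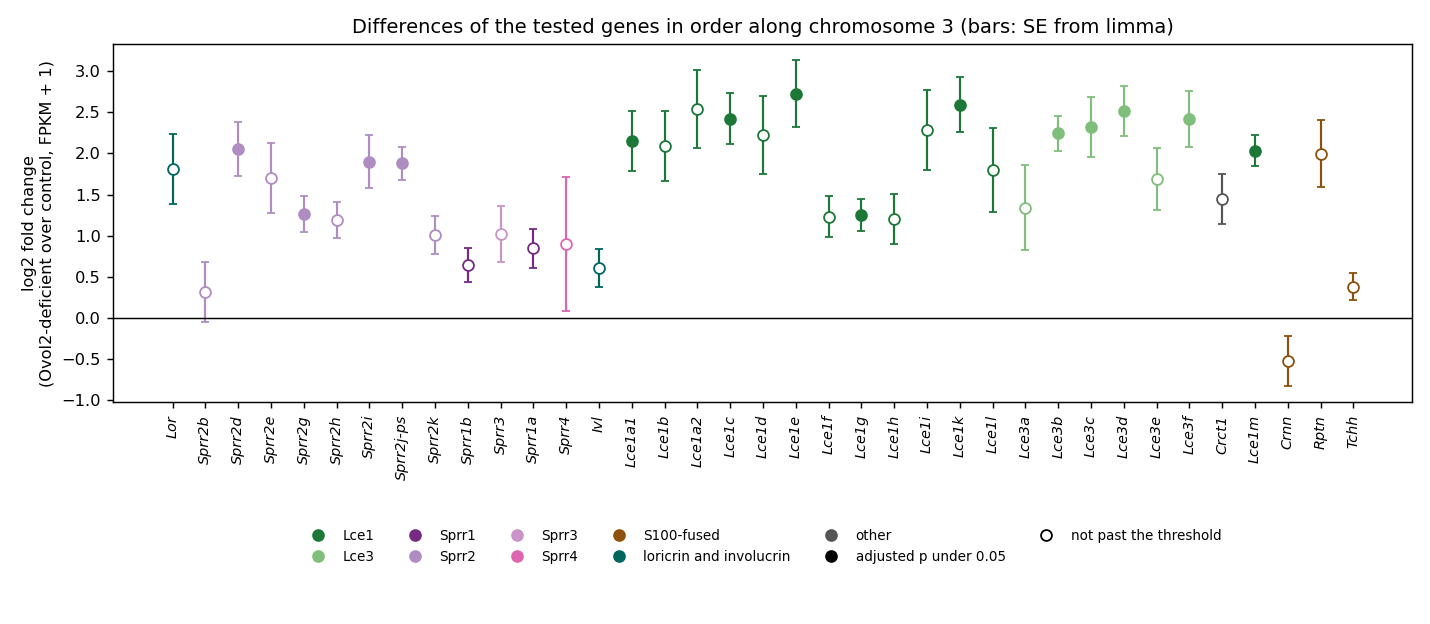
Log2 fold change (Ovol2-deficient over control, on log2(FPKM + 1)) of the 37 tested genes in chromosome order, with limma standard errors as bars and filled symbols for adjusted p under 0.05. Values are above 0 for 36 genes and reach 2.73 for Lce1e, while Crnn lies at -0.52.

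The authors' own comparison held more envelope genes that were higher as well. Of the 45 genes, 32 have an adjusted p in the authors' deposited table. At 0.05, 20 of them were higher and 0 lower in the authors' deposited table, where 2.33% of all genes with an adjusted p were higher and 2.1% lower. Both analyses called 11 of them, while Lce1k, Lce1m and Lce3b have no adjusted p there. By family, the authors' deposited table called 7 of 9 Lce1 genes, 4 of 4 Lce3 genes, 7 of 8 Sprr2 genes and 1 of 2 Sprr1 genes. It also called Crct1, and neither Lor nor Ivl. For Lce3d and Sprr2d the log2 fold changes in the authors' deposited table were 1.16 and 0.71, smaller than those from FPKM above. The authors' fold changes may be on another scale, so these sizes are not directly comparable.

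The bases upstream of the start sites were read for the envelope genes, whether or not they rose. RefSeq windows of 250 bases upstream (GRCm38.p6) were found for 41 of the 45 genes, and for 38 of the 41 the bases after the start matched the gene's own transcript. Both strands were searched for the TATA box motif TATAAA and for its variant ATAAAA, which can overlap by 5 letters. They were also searched for TGANTCA, a loose form of the AP-1 motif, and for AACCNGTT, the motif of Grainyhead-like factors. In TGANTCA the N stands for any base, while the usual AP-1 site has G or C there. The matches in Sprr1b, Crnn, Flg2 and Tchhl1 read TGAATCA and that in Rptn TGATTCA, so they are not the usual site. The last motif, that of Ovo proteins, was CCGTTA. The windows below are those of Lce1k, Lce3b, Sprr2d, Sprr1b and Lor, which stand for the families. They are read 5′ to 3′ on the gene's strand and end at the base before the start site, with motif matches in capitals.
Lce1k (chr3:92807892-92808141, minus strand): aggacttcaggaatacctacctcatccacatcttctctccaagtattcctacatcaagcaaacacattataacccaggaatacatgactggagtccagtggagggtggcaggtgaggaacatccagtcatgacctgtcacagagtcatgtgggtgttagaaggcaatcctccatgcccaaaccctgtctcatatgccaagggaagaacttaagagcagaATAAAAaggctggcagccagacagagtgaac
Lce3b (chr3:92932729-92932978, plus strand): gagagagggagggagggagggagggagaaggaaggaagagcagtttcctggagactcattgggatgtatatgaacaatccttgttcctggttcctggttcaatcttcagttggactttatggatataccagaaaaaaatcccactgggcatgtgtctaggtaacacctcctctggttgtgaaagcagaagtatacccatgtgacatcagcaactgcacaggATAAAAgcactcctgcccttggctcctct
Sprr2d (chr3:92338890-92339139, plus strand): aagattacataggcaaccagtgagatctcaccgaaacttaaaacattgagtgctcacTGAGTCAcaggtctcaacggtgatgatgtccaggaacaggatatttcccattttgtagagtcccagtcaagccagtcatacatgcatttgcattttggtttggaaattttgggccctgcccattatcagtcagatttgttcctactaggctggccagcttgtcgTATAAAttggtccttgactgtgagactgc
Sprr1b (chr3:92438780-92439029, minus strand): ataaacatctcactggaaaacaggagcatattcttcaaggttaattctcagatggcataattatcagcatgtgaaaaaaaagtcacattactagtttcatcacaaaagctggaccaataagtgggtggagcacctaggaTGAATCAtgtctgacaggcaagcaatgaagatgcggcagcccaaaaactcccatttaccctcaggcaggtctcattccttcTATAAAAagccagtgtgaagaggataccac
Lor (chr3:92083143-92083392, minus strand): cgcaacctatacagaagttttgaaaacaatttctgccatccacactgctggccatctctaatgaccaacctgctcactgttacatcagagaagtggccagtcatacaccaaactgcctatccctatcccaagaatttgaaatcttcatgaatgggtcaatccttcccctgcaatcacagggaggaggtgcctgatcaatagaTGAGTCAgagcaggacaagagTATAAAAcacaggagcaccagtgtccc
Each holds a TATA-like match close to its end, at -31 in Lce1k, -29 in Lce3b and Sprr2d, -30 in Sprr1b and -27 in Lor, counted to the first base of the match. In Lce1k and Lce3b it is ATAAAA, and in the others it is TATAAA. AP-1 matches occur at -193 in Sprr2d, -111 in Sprr1b and -48 in Lor, and at no position in the windows of Lce1k and Lce3b.

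A TATAAA or ATAAAA match on the gene's strand between -36 and -24 occurred in 32 of the 41 windows (78.0%), against 2.52% of 32851 windows of all genes. It was present in 12 of 13 Lce1, 5 of 6 Lce3, 7 of 8 Sprr2 and 1 of 2 Sprr1 windows. In Sprr1a it lies outside this range, at -43. TGANTCA matches were divided by family: 15 of 41 windows had one (36.6%, against 6.75% of all windows). Among them were 2 of 2 Sprr1 and 7 of 8 Sprr2 windows and those of Lor and Ivl. The match occurred in 0 of 13 Lce1 and 0 of 6 Lce3 windows. The median log2 fold change was 1.10 over the 12 tested genes with a TGANTCA match and 2.15 over the 21 without. This split largely follows the families. The Grainyhead-like motif was found in 1 of 41 windows (2.44%, against 1.79%) and CCGTTA in 0 of 41, against 2.18% of all windows. A match is a description of these letters, and its absence from this window says nothing about the factor.

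Other genes of the differentiation programme were read from lists, beside which the envelope genes' median of 1.80 can be set. Over the 29 envelope genes with a control mean of at least 1 FPKM that median was 1.70. Of 25 tested assembly partners of the envelope, which include transglutaminases, desmosome proteins and keratins of upper layers, none passed in limma, the median log2 fold change was 0.38 and 20 were positive. At an unadjusted p under 0.05, 8 were higher and 0 lower, against 9.49% and 7.94% of all genes tested. The authors' deposited table called 2 of the 26 with an adjusted p higher. Of all genes with an adjusted p there, 2.33% were higher and 2.1% lower. The same shares can be set beside the counts of the lists below. Krt10, a keratin of cells that have left the basal layer, had 23.2 and 3.85 FPKM in controls and 43.9 and 19.6 in deficient libraries (1.49 ± 0.69 SE, limma adjusted p = 0.331), and its groups overlapped. Krt1, its partner, overlapped as well, at 9.71 and 1.77 against 17.8 and 6.999 FPKM. For both keratins the controls lay further apart than the group means. Calml3, a calmodulin-like protein, stood at 3.60 and 0.758 against 9.06 and 4.67 FPKM (1.41 ± 0.44, adjusted p = 0.164). Tgm1, the main transglutaminase of keratinocytes, was measured at 23.3 and 25.5 against 39.8 and 25.8 FPKM (0.38 ± 0.19, adjusted p = 0.357), so that deficient 2 and control 2 were level.

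Of 15 tested genes for the lipids of the barrier none passed in limma, and all 15 log2 fold changes were positive, with a median of 0.63. Among them Lipk, with a control mean of 0.846 FPKM, met the filter only through the deficient libraries, so it had to be higher there. The median difference from the control mean was 0.72 in deficient 1 and 0.33 in deficient 2. At an unadjusted p under 0.05, 9 were higher, against 9.49% of all genes tested, and 2 were called higher in the authors' deposited table. Alox12b, a lipoxygenase that acts on ceramides, had 4.10 and 2.68 FPKM in controls and 18.8 and 7.06 in deficient libraries (1.55 ± 0.38 SE, limma adjusted p = 0.0993). Pnpla1, which makes acylceramides, stood at 1.96 and 0.948 against 5.42 and 2.64 FPKM (1.01 ± 0.30, adjusted p = 0.146). Among 25 tested transcription factors known to act on the complex none passed in limma, with a median of 0.25. At an unadjusted p under 0.05, 5 were higher, against the same 9.49%, and 2 were called higher in the authors' deposited table. The largest differences were those of Hopx, at 39.9 and 23.9 against 88.9 and 47.4 FPKM (1.05 ± 0.31, adjusted p = 0.149), and Prdm1 (Blimp1), at 3.03 and 1.79 against 6.31 and 4.28 FPKM (0.89 ± 0.22, adjusted p = 0.102).

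Genes that lie beside or within the complex without being in the set gave 3 that rose among 18 tested, with a median of 0.32. Over all genes tested, 0.837% were called higher. At an unadjusted p under 0.05, 7 of the 18 were higher and 0 lower, and 4 were called higher in the authors' deposited table. Kprp, a proline-rich keratinocyte protein, went from 6.41 and 3.36 to 31.9 and 16.9 FPKM (2.09 ± 0.32 SE, limma adjusted p = 0.0419). S100a9 was measured at 24.0 and 17.5 against 90.6 and 53.8 FPKM (1.72 ± 0.24, adjusted p = 0.0392), and its partner in calprotectin, S100a8, at 38.8 and 30.1 against 119 and 69.6 FPKM (1.39 ± 0.24, adjusted p = 0.0482). In these 3 the groups stood apart, in the same order of libraries as most Lce genes. The largest log2 fold change of the list was that of 2310050C09Rik, which did not pass (2.25 ± 0.43, limma adjusted p = 0.0572). Of 12 basal keratinocyte genes, 10 were lower in both deficient libraries, as were 24.0% of all genes tested. In limma 2 fell, against 0.511% of all genes tested. At an unadjusted p under 0.05, 8 were lower and 0 higher, and 6 were called lower in the authors' deposited table. Among the 2 that fell was Lamb3, a laminin chain, at 72.2 and 75.0 against 45.2 and 46.1 FPKM (-0.68 ± 0.086, adjusted p = 0.0353). The list's median was -0.37, but Krt14 overlapped (2225 and 2292 against 2280 and 1773 FPKM). After quantile normalization the value of Krt14 was 0.07 and that of Krt5 0.00. That method gives all libraries the same set of values by rank, so it cannot show a fall of a gene that keeps its rank. Without deficient library 1, and likewise after quantile normalization, without the filter or without the variance trend, none of these 5 limma calls in the 5 lists remained, while 3 calls were made without deficient 2 and 23 without control 1. Without deficient library 1, 10 genes of the lists were higher and 9 lower at an unadjusted p under 0.05, against 29 and 8 with it.

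**Figure D4:**
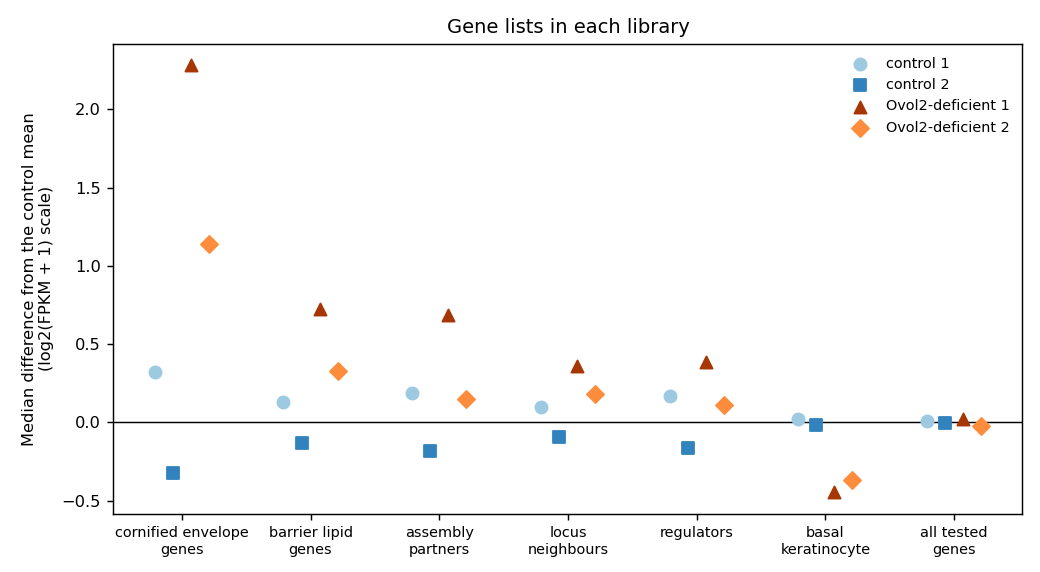
Median difference from the control mean, on log2(FPKM + 1), of the tested genes of each list in each library. The envelope genes lie at 2.28 and 1.14 in deficient libraries, the assembly partners at 0.68 and 0.15 and the basal genes at -0.45 and -0.37, while all tested genes stay near 0. The envelope genes here are all 37 tested, with the 8 that met the filter only through the deficient libraries. Lipk of the barrier lipid genes met it in the same way.

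Markers of other cells also differed between the groups. Of 15 fibroblast or feeder markers, 14 were higher in both deficient libraries, against 23.4% of all genes. All 12 tested were higher at an unadjusted p under 0.05, against 9.49% of all genes tested. Among them Pdgfra, with a control mean of 0.965 FPKM, met the filter only through the deficient libraries, so it had to be higher there. In limma 2 rose, against 0.837% of all genes tested: Loxl1, at 12.9 and 14.7 against 22.2 and 23.5 FPKM (0.69 ± 0.10 SE, limma adjusted p = 0.0412), and Pcolce, at 44.5 and 46.9 against 65.5 and 68.0 FPKM (0.54 ± 0.088, adjusted p = 0.0468). Of 13 with an adjusted p, 8 were called higher in the authors' deposited table, against 2.33% of all genes with an adjusted p. The summed level of the list was 229 and 227 FPKM in controls and 310 and 340 in deficient libraries, and none of its markers was listed at 0 in all libraries. All 7 melanocyte markers were higher in both deficient libraries, against the same 23.4%, with sums of 62.2 and 67.7 against 90.8 and 84.2 FPKM. None of 6 tested passed in limma. At an unadjusted p under 0.05, 4 were higher, against the same 9.49%, and 1 was called higher in the authors' deposited table. The part of these cells in the results on the envelope genes was not tested. Immune markers summed to 6.64 and 15.2 against 10.6 and 8.55 FPKM, with Cd207 listed at 0, and endothelial markers to 3.29 and 3.73 against 4.32 and 3.24 FPKM, with Cdh5 listed at 0. The keratins of the inner root sheath, where Tchh is also found, were at or near 0 (Krt25, Krt27, Krt28, Krt71, Krt72 and Krt73 at 0 to 0.184 FPKM, Krt72 at 0 in all libraries). Padi3, the list's remaining marker, was lower in both deficient libraries, at 1.51 and 2.11 against 0.790 and 0.855 FPKM (-0.62 ± 0.17 SE, limma adjusted p = 0.125). The list summed to 1.74 and 2.20 against 0.989 and 1.196 FPKM. Krt4 and Krt13, keratins of internal stratified epithelia, lay between 0 and 0.758 FPKM. Krt6a and Krt16, also on that list but made by activated and cultured keratinocytes as well, were high with overlapping groups. Krt6a had 1361 and 1293 against 1320 and 1191 FPKM, and Krt16 had 909 and 631 against 1144 and 761.6 FPKM. In bulk RNA, more cells that express the envelope genes and more of their RNA in each cell cannot be told apart.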

How the data were processed

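RNA-seq was compared between 2 control and 2 Ovol2-deficient keratinocyte libraries. Per the labels' protocols, RNA was taken with Trizol, full-length cDNA amplified and libraries made by tagmentation, a step for which no strand is stated. TopHat, HTSeq and the build mm10 are named, with no versions or order, per the submitters' processing notes. The first table the authors deposited holds FPKM for each gene in 4 libraries. The sources used here do not give the tool for it. The second, deposited by the authors as their comparison, holds per the file headers a mean normalized signal, log2 fold changes and their errors, a test score, and raw and adjusted p-values. The mutant columns are the Ovol2-deficient group, with the numbers of the table.

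Date-like symbols (27 rows) were dropped, and rows sharing a symbol were summed. Genes with a mean of at least 1 FPKM (11350) were fitted with limma 3.58.1 in R 4.3.3 on log2(FPKM + 1), with group as the only term, a variance trend and Benjamini-Hochberg adjustment at 0.05. This pseudocount makes fold changes of low genes smaller. The design allowed for counts or normalized values, and the limma branch was used since no counts were found. The fit was tested on simulated data. No library was a copy of another, with 5 to 13 identical values per pair. Fold changes are Ovol2-deficient over control, and ± is the SE of a fold change or the SD of a mean.

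The genes and lists were chosen with earlier results of these data known. Values in every library are given for each envelope gene that passed, the 2 best expressed of each subfamily, Lor, Ivl, Flg2, Hrnr, Rptn, Tchh, Tchhl1, Crct1, Smcp and Crnn, and for up to 3 called genes per direction of each other list or else its 2 largest changes. A gene and a sequence among these are not reported here. A few further genes were named after their values were seen (Lce1j, Lce3a, Sprr2b and keratins of the marker lists). Alternatives were another pseudocount, no filter, 2 normalizations, no variance trend, a replicate block and leaving out each library.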

Additional observations from a re-analysis of the deposited data

How the results depend on the processing

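The fit on log2(FPKM + 1) called 14 of 37 envelope genes, 5 genes of the partner lists and 153 of all genes. With a pseudocount of 0.1 all 14 envelope genes were called again, and with median-of-ratios scaling 11 were. Without a filter on low values the counts were 0, 0 and 3, with more genes tested. After quantile normalization they were 0, 0 and 5, and without the variance trend 2, 0 and 6. The library number as a replicate block gave 30, 31 and 518. The libraries share only a number: deviations of same-numbered libraries correlated at 0.2204 over 11350 genes, from 2 pairs. Leaving out 1 library gave 0 to 26 envelope genes, 0 to 23 partner genes and 10 to 397 of all genes, lowest without deficient 1 and highest without control 1 in each case. A group left with 1 library was assumed to vary like the other. The median log2 fold change of the tested envelope genes was 1.14 to 2.28 over all of these settings. The log2 ratio of the Sprr2 sums was 0.97 to 1.81 when 1 library was left out. The sign turned for Sprr2b without control 2 (-0.29, against up to 0.92 without another library) and for Sprr4 without deficient 1 (-0.52, against up to 2.32), both not called. Krt5 came to 0.00 and Krt14 to 0.067 after quantile normalization, which shows no difference for a gene of the same rank in all libraries. Krt14 came to 0.014 without deficient 2 and -0.35 without deficient 1. The cause of these changes was not tested. Values under about 1 FPKM rest on few reads, and the summed levels of near-identical copies are firmer than their split.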

Other observations

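For some envelope genes the fold changes from the 2 deposited tables differed in size. The authors' fold changes may be computed on another scale than log2(FPKM + 1), so the sizes are not directly comparable. Lce1a2 had 10.5 and 2.83 FPKM in controls and 49.2 and 28.9 in deficient libraries, a log2 fold change of 2.55 ± 0.47 (SE) on log2(FPKM + 1), while the authors' deposited table gives 0.38. For Lor the values were 1.81 from FPKM and 0.26 in the authors' deposited table, and for Rptn 1.997 and 0.32. For Sprr1b they were nearer, at 0.65 and 0.53 in the authors' deposited table, and for Tchh at 0.38 and 0.37. Sprr2a2 had 0.629, 0.435, 0.711 and 0.480 FPKM in the 4 libraries and a mean normalized signal of 0 in the authors' deposited table. These genes were picked after their values were seen.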
